A study of Mus musculus with 6 samples.

Results

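Genes of the cell division cycle were compared between inguinal white fat of Naa10-KO mice and of WT mice. The list held 40 genes, from the G1 cyclins to the mitotic kinases and the inhibitors of cyclin-dependent kinases (CDKs), and 39 of them were measured among 18193 genes in all. Each gene was read from 1 probe set of an Affymetrix whole-genome mouse array, the one with the highest mean over the 6 arrays among those annotated to that gene only. Ccnb1 was not analysed here, as no probe set of the annotation used carried its name. Both groups were male mice that were put on a high-fat diet (60% of calories as fat) at 6 weeks of age, ate it for 15 weeks and then spent 4 h at 4 °C. The first group carried a knockout of Naa10, whose product acetylates the N termini of proteins (Naa10-KO, n = 3), and the second was wild type (WT, n = 3). The strain and the way the allele was made are not given in the sources used here. Each array held 1 mouse.

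A dividing cell passes from G1 through S phase, when DNA is copied, and G2 to mitosis. D-type cyclins with Cdk4 and E-type cyclins with Cdk2 release E2F factors from the retinoblastoma protein, and E2F factors then switch on the genes of DNA replication. Cyclin A and cyclin B with Cdk1 drive the later steps. Mature adipocytes have left the cycle. Dividing cells of fat are found among adipocyte progenitors, macrophages, endothelium and lymphocytes, and a high-fat diet is known to raise the division of progenitors in some depots. In a piece of tissue, fewer dividing cells and less RNA per cell cannot be told apart.

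Values are log2 signals as the authors deposited them, and differences are Naa10-KO minus WT on that scale, with the standard error (SE) of limma's fit across all genes. Adipocyte genes were high on all 6 arrays. Of 12 measured white adipocyte markers, 5 means were higher and 7 lower in Naa10-KO. The groups did not overlap for 1 of them (8.33%, against 18.1% of all genes). That gene was Cidec, with a difference of -0.33 and all Naa10-KO arrays below all WT arrays. Adipoq, which encodes adiponectin, lay between 15.57 and 15.81 in Naa10-KO and between 15.46 and 15.78 in WT, and Fabp4 between 15.85 and 16.22 in Naa10-KO and between 15.72 and 16.09 in WT. Skeletal muscle genes separated the groups, with 18 of 20 listed markers above all WT arrays on all Naa10-KO arrays. Their mean log2 signal was 11.26, 11.21 and 11.50 on Naa10-KO replicates 1 to 3 and 5.21, 5.74 and 8.38 on WT replicates 1 to 3. Between control probe sets of Gapdh, the log2 difference of the 3' from the 5' set was 0.55 on Naa10-KO replicate 1 and -0.27 to 0.01 on the other 5 arrays. For the actin control it was 2.07, 1.63 and 1.42 on Naa10-KO replicates 1 to 3 and 1.85, 1.73 and 1.59 on WT replicates 1 to 3. The part of muscle RNA and of RNA quality in the values below was not tested.

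No measured cell cycle gene passed the test. In limma, with Benjamini-Hochberg adjustment over all genes and a threshold of 0.05, 0 of the 39 members passed with a higher and 0 with a lower signal in Naa10-KO fat. Of all genes, 0.115% passed in either direction, 0.0879% higher and 0.0275% lower. At an unadjusted p under 0.05 there were 2, E2f1 (lower) and Mcm7 (higher), which is 5.13% of the members against 9.20% of all genes and 9.56% of genes above the median signal. All 3 Naa10-KO arrays lay beyond all 3 WT arrays in 4 members, 10.3% of the 39, against 18.1% of all genes. Mcm3 and Mcm7 lay above, as did 1821 of all 18193 genes, and E2f1 and Ccne1 below, as did 1481 (8.14%). Among members above the median signal the share was 14.8%, against 22.8% of such genes. Of the 39 means, 14 were higher and 25 lower in Naa10-KO (64.1% lower, against 48.6% of all genes).

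Signal divided the members into 27 whose mean over the 6 arrays lay above the median of all probe set values, 5.86, and 12 that lay below it. The members nearest to this mark were Cdca8 and Birc5, both with a mean of 5.97, just above it, and Aurka (5.52) and Tpx2 (5.42), just below it. The median difference of the 27 was -0.10, against 0.02 for all genes above the mark, and it was also -0.10 over the 39. It turned to 0.09 without probe sets ending in x_at or s_at and to 0.06 without WT replicate 1. Replicates of the 27 spread a little more than those of other genes, with a median SD within groups of 0.27 against 0.22. The 95% interval of the difference lay wholly inside 1 log2 unit either way for 14 of the 27, so that a change of more than 2-fold lay outside it, against 76.1% of all genes above the mark.

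**Figure D1:**
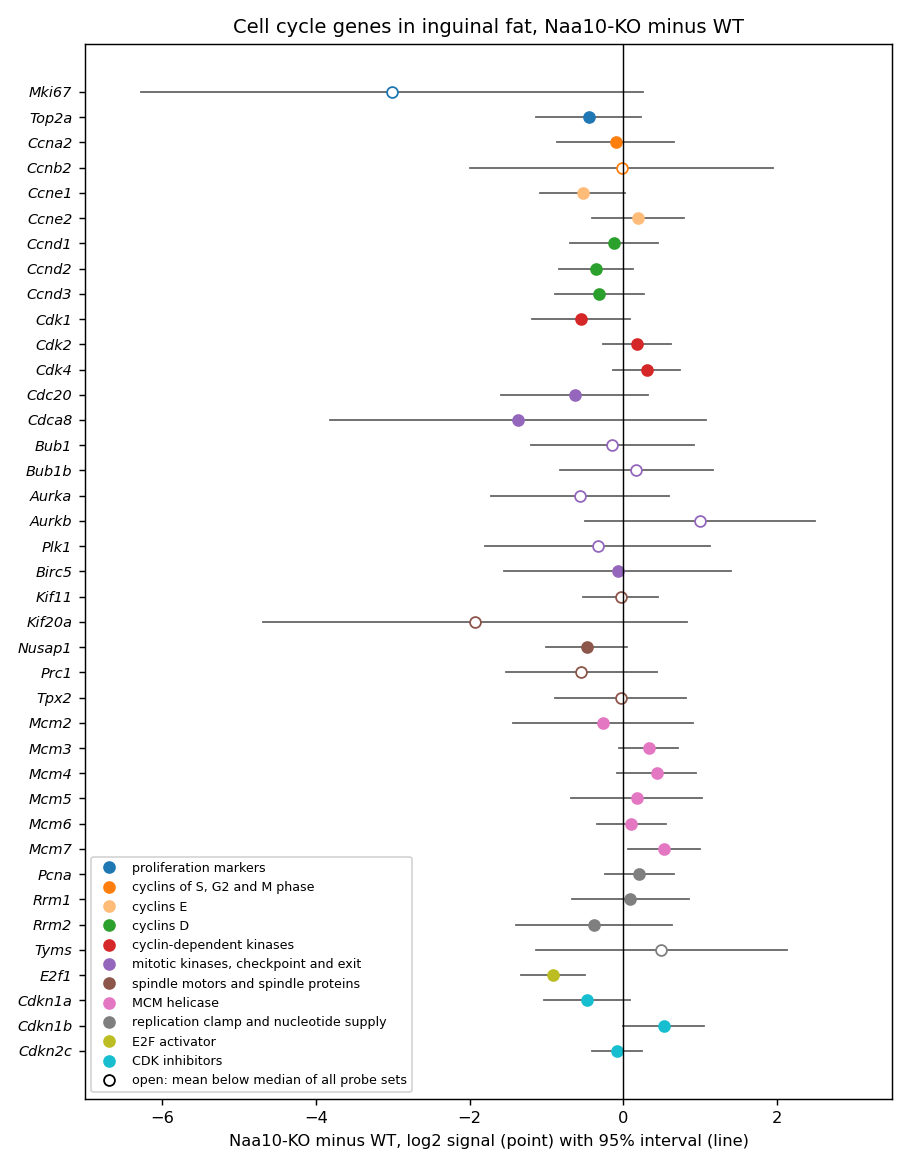
Log2 difference of each measured cell cycle gene between Naa10-KO and WT (x axis, Naa10-KO minus WT), with its 95% interval from limma. Colours give the role of the gene, and open points mark the 12 members of low mean signal. The intervals of E2f1 (-1.32 to -0.50) and Mcm7 (0.07 to 0.99) did not reach 0, and those of the other 37 did.

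E2f1, the E2F activator that turns on replication genes at the entry to S phase, had the smallest p of all members. Its log2 signal was 6.71, 6.71 and 6.47 on the Naa10-KO arrays and 7.45, 7.75 and 7.45 on the WT arrays. The groups were far apart relative to their spread, with means of 6.63 ± 0.14 in Naa10-KO and 7.55 ± 0.17 in WT (SD, n = 3 each). The difference of -0.91 (SE 0.16), a 1.88-fold lower signal in Naa10-KO, had an unadjusted p of 0.00199 in limma and an adjusted p of 0.230, so it did not pass. When low values were raised to the median, 13264 genes were tested, E2f1 kept the same difference, and its adjusted p was 0.0465. Adjusted p-values of E2f1 in limma lay between 0.0465 and 0.670 over 16 alternative fits, with a negative difference in each.

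A second E2f1 probe set gave 5.68, 6.71 and 6.82 on the Naa10-KO arrays and 7.40, 7.05 and 7.43 on the WT arrays, a difference of -0.89. These groups did not overlap either, while Naa10-KO replicate 1 stood below the other Naa10-KO arrays. The third E2f1 probe set had a low signal and differed by -0.34 with overlapping groups.

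The MCM proteins Mcm2 to Mcm7 together form the ring-shaped helicase that is loaded on replication origins in G1 and unwinds DNA in S phase. All 6 were above the median of all probe sets. Naa10-KO means exceeded WT means for 5 of the 6, Mcm2 being the exception, with a median difference of 0.25 over the 6, and 0 passed the test. The median lay between 0.14 (without WT replicate 2) and 0.29 when each array was left out in turn, with 4 to 6 of the 6 means higher.

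Mcm7 gave 11.35, 11.04 and 10.91 on the Naa10-KO arrays and 10.50, 10.45 and 10.77 on the WT arrays. The groups did not overlap, although the lowest Naa10-KO value and the highest WT value lay close together. Mcm7 differed by 0.53 (SE 0.18, unadjusted p = 0.0320, adjusted p = 0.517 in limma). Its other 3 probe sets, all above the median, differed by 0.59, 0.32 and -0.18, and the groups did not overlap in the first of these.

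Mcm3 gave 7.57, 7.41 and 7.37 on the Naa10-KO arrays and 7.28, 6.98 and 7.10 on the WT arrays. Here too the groups did not overlap, with a difference of 0.33 (SE 0.15, adjusted p = 0.579 in limma). Its 4 other probe sets differed by 0.29, 0.84, 0.70 and -0.53, and the last 3 of these had low signals. The probe sets used for Mcm3 and Mcm7 end in s_at, a suffix of sets whose probes match several transcripts. Without sets ending in x_at or s_at, the difference was 0.84 for Mcm3, from a set of low signal, and 0.32 for Mcm7.

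Mcm4 differed by 0.43 (SE 0.21), with 9.66, 9.38 and 9.17 on the Naa10-KO arrays and 8.77, 9.22 and 8.93 on the WT arrays, so the groups overlapped by a narrow margin. Mcm5 and Mcm6 differed by 0.17 and 0.10. Mcm2, at 8.07 ± 0.62 in Naa10-KO and 8.34 ± 0.66 in WT (SD, n = 3 each), differed by -0.27, and its second probe set by 0.24.

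Windows around the start sites of Mcm3, Mcm5, Mcm6 and Mcm7 hold sequence words known from E2F-regulated promoters, and they are shown for the 2 MCM genes whose groups did not overlap, beside Cdk1. The sequences are from RefSeq (GRCm38.p6) and run from 250 bases before to 50 bases after a transcript's start site. They are written 5′ to 3′ on the gene's strand and lie on the minus strand. Their places are chr1:20820263-20820562 (Mcm3), chr5:138171834-138172133 (Mcm7) and chr10:69352863-69353162 (Cdk1). The Mcm7 window is the nearer of 2 to the gene's outermost annotated start, which lies 228 bases before the start site used. Cdk1 was chosen after the windows were read, as one that holds every kind of word marked. Capitals mark, on either strand, E2F words (TTTCCCGC, TTTGGCGC, TTTGCCGC or TTTCGCGC), the cell cycle homology region word TTTGAA of genes expressed in G2 and mitosis, and the CCAAT word bound by NF-Y.
Mcm3: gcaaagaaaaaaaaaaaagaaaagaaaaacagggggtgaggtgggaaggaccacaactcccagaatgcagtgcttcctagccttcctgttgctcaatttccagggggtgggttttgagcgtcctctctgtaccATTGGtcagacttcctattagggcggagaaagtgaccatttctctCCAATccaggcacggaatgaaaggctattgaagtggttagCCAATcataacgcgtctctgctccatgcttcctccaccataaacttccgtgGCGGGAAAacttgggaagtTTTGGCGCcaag
Mcm7: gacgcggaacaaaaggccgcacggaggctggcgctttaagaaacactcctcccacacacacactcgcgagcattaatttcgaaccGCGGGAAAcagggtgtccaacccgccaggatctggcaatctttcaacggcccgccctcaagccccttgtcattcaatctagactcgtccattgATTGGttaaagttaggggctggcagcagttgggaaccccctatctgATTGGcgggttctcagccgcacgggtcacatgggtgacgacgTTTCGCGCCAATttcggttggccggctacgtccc
Cdk1: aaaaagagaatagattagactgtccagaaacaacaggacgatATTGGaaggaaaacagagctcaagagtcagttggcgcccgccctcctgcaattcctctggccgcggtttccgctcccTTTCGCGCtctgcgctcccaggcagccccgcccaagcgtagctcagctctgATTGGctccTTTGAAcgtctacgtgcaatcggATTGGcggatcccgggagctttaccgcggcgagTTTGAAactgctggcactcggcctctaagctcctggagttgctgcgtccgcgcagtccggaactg
The windows of Mcm3 and Mcm7 each hold 2 E2F words and 3 CCAAT words, and in Mcm7 an E2F word and a CCAAT word share a base. The window of Ccne1, whose groups did not overlap either, was read too and holds none of the words. Only windows that hold the outermost annotated start of their gene were searched, which 29 of the 39 members had. The windows of E2f1 and Aurka begin past that start and were left out. An E2F word was in 6 of the 29 (20.7%), which were Mcm3, Mcm5, Mcm6, Mcm7, Cdk1 and Cdk2, against 2.25% of 23727 genes with such a window. TTTGAA was in 11 of the 29 (37.9%, against 18.7% of genes), among them Mki67, Top2a, Plk1, Cdc20 and Ccnb2, and CCAAT was in 21 (72.4%, against 38.4%). These matches describe the letters of the windows and are not measurements of binding.

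Replication also needs the sliding clamp Pcna and a supply of deoxynucleotides. Pcna gave 12.75, 12.62 and 12.29 on the Naa10-KO arrays and 12.43, 12.40 and 12.21 on the WT arrays. The groups overlapped, and the difference of 0.21 (SE 0.18, adjusted p = 0.730) had a 95% interval of -0.24 to 0.66. Rrm1 and Rrm2, the large and the small subunit of ribonucleotide reductase, differed by 0.09 and -0.39, with overlapping groups. A second probe set of Rrm1 differed by -0.28, with all Naa10-KO arrays below all WT arrays, so the probe sets of this gene did not give 1 direction. Tyms, thymidylate synthase, had low values on all 6 arrays.

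**Figure D2:**
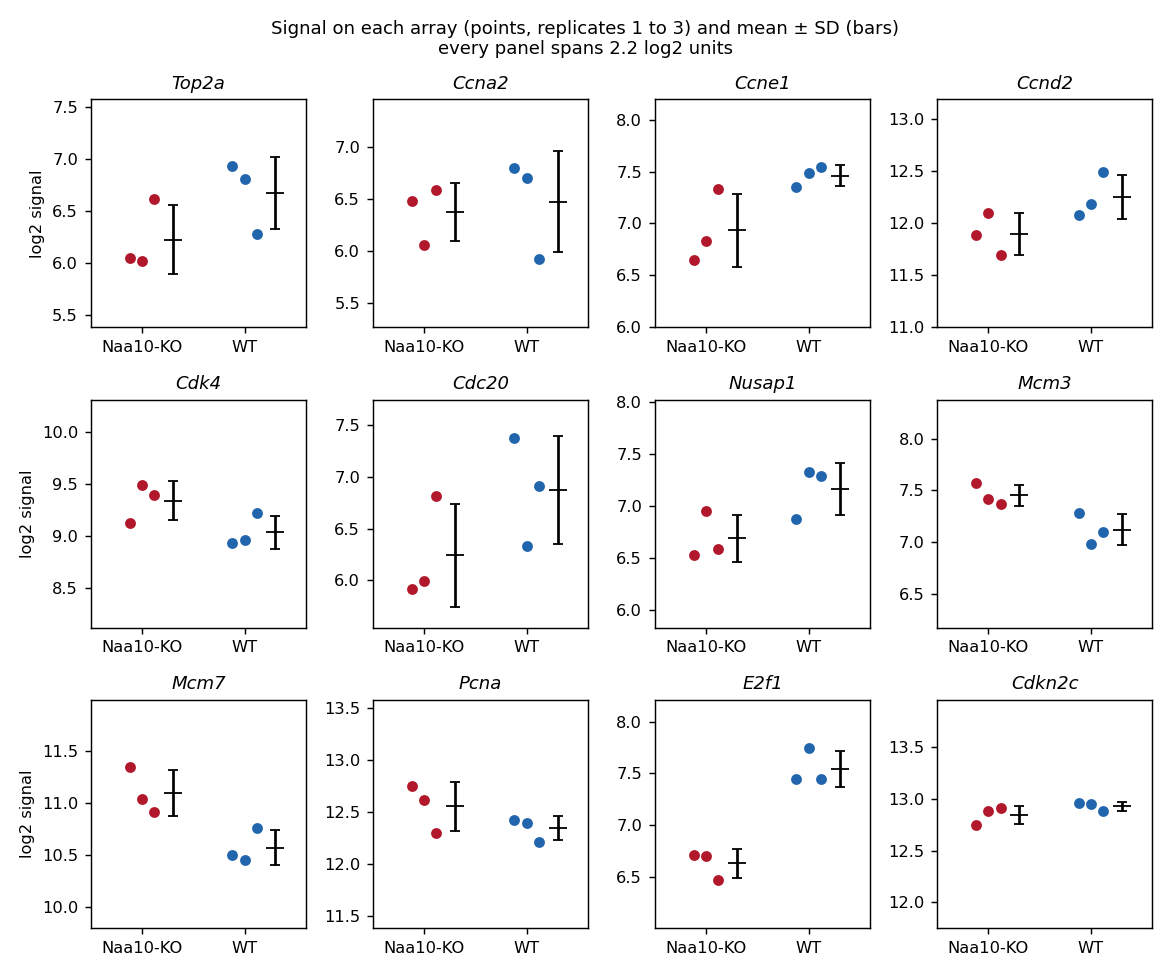
Log2 signal of 12 cell cycle genes on each array (y axis), with Naa10-KO in red on the left and WT in blue on the right of each panel, replicates 1 to 3 from left to right, and mean ± SD as bars (n = 3 each). Every panel spans an equal range of the log2 scale. The groups do not overlap for Ccne1, Mcm3, Mcm7 and E2f1, and overlap in the other 8 panels.

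Cyclins bind and activate the CDKs. Among the D-type cyclins, which couple growth signals to Cdk4, Ccnd2 gave 11.89, 12.10 and 11.70 on the Naa10-KO arrays and 12.08, 12.18 and 12.49 on the WT arrays. The groups overlapped at Naa10-KO replicate 2 and WT replicate 1 and differed by -0.36 (SE 0.19, adjusted p = 0.609). The difference was negative in all 7 Ccnd2 probe sets, from -0.61 to -0.09, and in 2 of them, at -0.61 and -0.45, all Naa10-KO arrays lay below all WT arrays. These probe sets read the same RNA samples and are not independent of each other. Ccnd1 differed by -0.13 and Ccnd3 by -0.31. The 95% intervals of all 3 D-type cyclins lay inside 1 log2 unit either way.

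Ccne1, an E-type cyclin of the step into S phase, gave 6.65, 6.83 and 7.33 on the Naa10-KO arrays and 7.35, 7.49 and 7.54 on the WT arrays. The groups did not overlap, but Naa10-KO replicate 3 lay just below the lowest WT array. The difference was -0.53 (SE 0.22, adjusted p = 0.548 in limma), from a probe set ending in x_at, whose probes may also match other transcripts. The second Ccne1 probe set differed by -0.23 with overlapping groups. Ccne2, the other E-type cyclin, differed by 0.19.

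Ccna2, the cyclin of S phase and G2, gave 6.48, 6.06 and 6.59 on the Naa10-KO arrays and 6.80, 6.71 and 5.92 on the WT arrays. The groups overlapped widely, and the difference of -0.10 changed sign when Naa10-KO replicate 2, WT replicate 1 or WT replicate 2 was left out. Cdk4 gave 9.13, 9.50 and 9.40 on the Naa10-KO arrays and 8.93, 8.96 and 9.22 on the WT arrays. Its difference of 0.30 (SE 0.17, adjusted p = 0.628), from a probe set ending in x_at, was positive in all 3 of its probe sets, between 0.15 and 0.30, and in 1 of them the groups did not overlap. Cdk2 differed by 0.18. Cdk1, the kinase of mitotic entry, was at 8.84 ± 0.17 in Naa10-KO and 9.40 ± 0.42 in WT (SD, n = 3 each), a difference of -0.55 (SE 0.25, adjusted p = 0.581) with overlapping groups. Cdk1 had a single probe set, so no second reading was at hand.

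The CDK inhibitors differed in direction, with 1 mean higher and 2 lower and 0 past the test. Cdkn1a, which is induced by p53 and blocks Cdk2, lay between 8.47 and 9.01 in Naa10-KO and between 8.98 and 9.50 in WT (difference -0.47, SE 0.22), and its second probe set differed by -0.57. Cdkn1b, which holds Cdk2 in resting cells, lay between 11.05 and 11.43 in Naa10-KO and between 10.50 and 11.05 in WT. Its groups met at Naa10-KO replicate 2 and WT replicate 3, and the difference was 0.52 (SE 0.21, adjusted p = 0.542), while a second probe set of low signal differed by -0.54. Cdkn2c, an inhibitor of Cdk4 and Cdk6, gave 12.75, 12.88 and 12.91 on the Naa10-KO arrays and 12.96, 12.95 and 12.88 on the WT arrays. That difference of -0.08 had a 95% interval of -0.41 to 0.24, among the narrower of the members.

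Top2a, the topoisomerase that untangles replicated DNA, and Mki67, which coats mitotic chromosomes, are the usual tissue markers of dividing cells. Top2a gave 6.05, 6.02 and 6.61 on the Naa10-KO arrays and 6.94, 6.81 and 6.28 on the WT arrays. Naa10-KO replicate 3 lay above WT replicate 3, and the difference was -0.45 (SE 0.27, adjusted p = 0.640). Its other probe sets had low signals and differed by 0.27 with overlapping groups and by -1.96 without overlap. Mki67 had 1 probe set, of low mean signal, which ran from 1.08 to 5.99 over the Naa10-KO arrays and from 5.72 to 7.42 over the WT arrays. Its difference of -3.01 (SE 1.30, adjusted p = 0.555) had a 95% interval of -6.28 to 0.25. It was -1.78 without Naa10-KO replicate 1 and -0.70 with low values raised to the median. Within the Naa10-KO group the SD of Mki67 was 2.46, and 2 of the 3 Naa10-KO arrays and 1 of the 3 WT arrays fell short of the overall median.

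Among the 13 members that act in mitosis, the kinases, checkpoint proteins and spindle proteins, 2 means were higher and 11 lower in Naa10-KO, where 48.6% of all genes were lower. Without Naa10-KO replicate 3 the split was 5 higher and 8 lower. Of the 13, 0 passed the test and 0 had groups without overlap, against 18.1% of all genes. That share was 10.4% for genes below the median signal and 22.8% for genes above it. Only 4 of the 13 lay above the median of all probe sets. Cdc20, the activator of the anaphase-promoting complex, gave 5.92, 5.99 and 6.82 on the Naa10-KO arrays and 7.37, 6.33 and 6.92 on the WT arrays (difference -0.63, SE 0.38). Another Cdc20 probe set above the median differed by 0.79, so the direction of this gene depended on the probe set. Nusap1, a protein that bundles spindle microtubules, gave 6.52, 6.95 and 6.59 on the Naa10-KO arrays and 6.88, 7.33 and 7.29 on the WT arrays. The groups overlapped, with a difference of -0.48 (SE 0.21, adjusted p = 0.559), and a second Nusap1 probe set of low signal differed by 2.33. Birc5, the survivin subunit of the chromosomal passenger complex, differed by -0.07. Cdca8, the borealin subunit of that complex, lay between 3.24 and 7.08 in Naa10-KO and between 6.51 and 6.77 in WT, so its difference of -1.37 rested on Naa10-KO replicates 1 and 2. It was -0.34 without Naa10-KO replicate 2 and 0.72 with another probe set, when x_at and s_at sets were left out.

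Members of low signal are given apart, since a probe set below the median may read little of its target. They were Mki67, Ccnb2, Bub1, Bub1b, Aurka, Aurkb, Plk1, Kif11, Kif20a, Prc1, Tpx2 and Tyms. Their differences ran from -3.01 (Mki67) to 0.999 (Aurkb), 9 negative and 3 positive, with a median SD within groups of 0.72. Adjusted p-values of the 12 lay between 0.555 and 0.996. Aurkb, the kinase of the chromosomal passenger complex, was at 5.11 ± 0.02 in Naa10-KO and 4.11 ± 1.17 in WT (SD, n = 3 each), and WT replicate 3, at 5.45, lay above all Naa10-KO arrays. Kif20a, a kinesin of cytokinesis, lay between 0.28 and 1.99 in Naa10-KO and between 1.66 and 5.44 in WT. Bub1 and Bub1b, kinases of the spindle checkpoint, differed by -0.14 and 0.17, and the mitotic kinases Aurka and Plk1 by -0.56 and -0.34. The spindle proteins Kif11, Tpx2 and Prc1 differed by -0.04, -0.04 and -0.55, and Ccnb2, a mitotic cyclin, by -0.02.

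**Figure D3:**
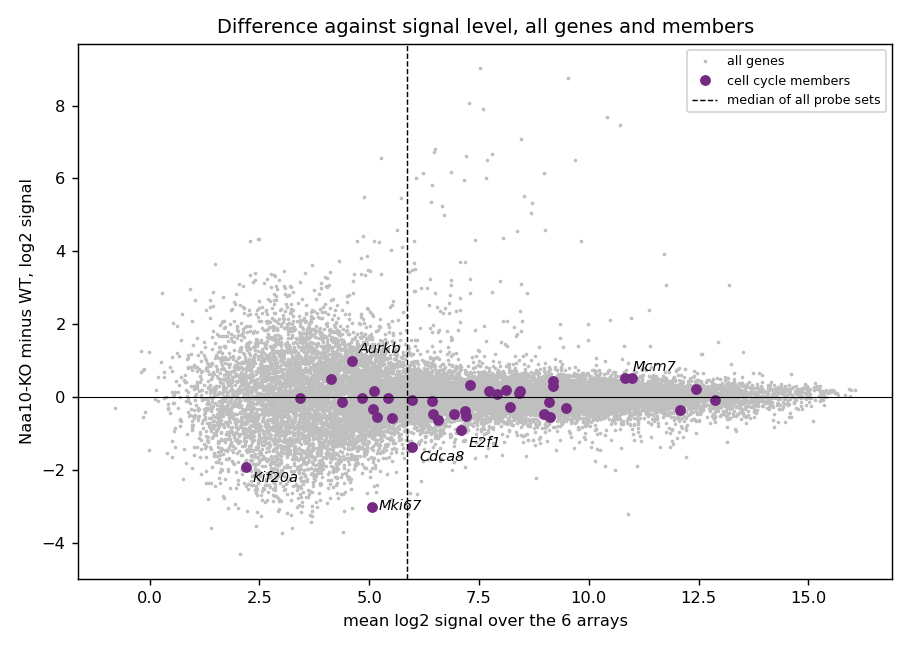
Log2 difference, Naa10-KO minus WT (y axis), against the mean log2 signal over the 6 arrays (x axis) for all 18193 genes in grey and the 39 cell cycle genes in purple. The dashed line is the median of all probe sets, 5.86. Left of it the grey cloud is wider, and Mki67 (-3.01) and Kif20a (-1.93) lie there.

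The members had 96 probe sets in all, of which 0 passed in limma over all probe sets. For 16 of the 27 members above the median, at least 1 more probe set also lay above it. Of these 25 further probe sets, 20 had the sign of the one used for the gene. The other 5 belonged to Ccnd3, Cdc20, Mcm2, Mcm7 and Rrm1.

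**Figure D4:**
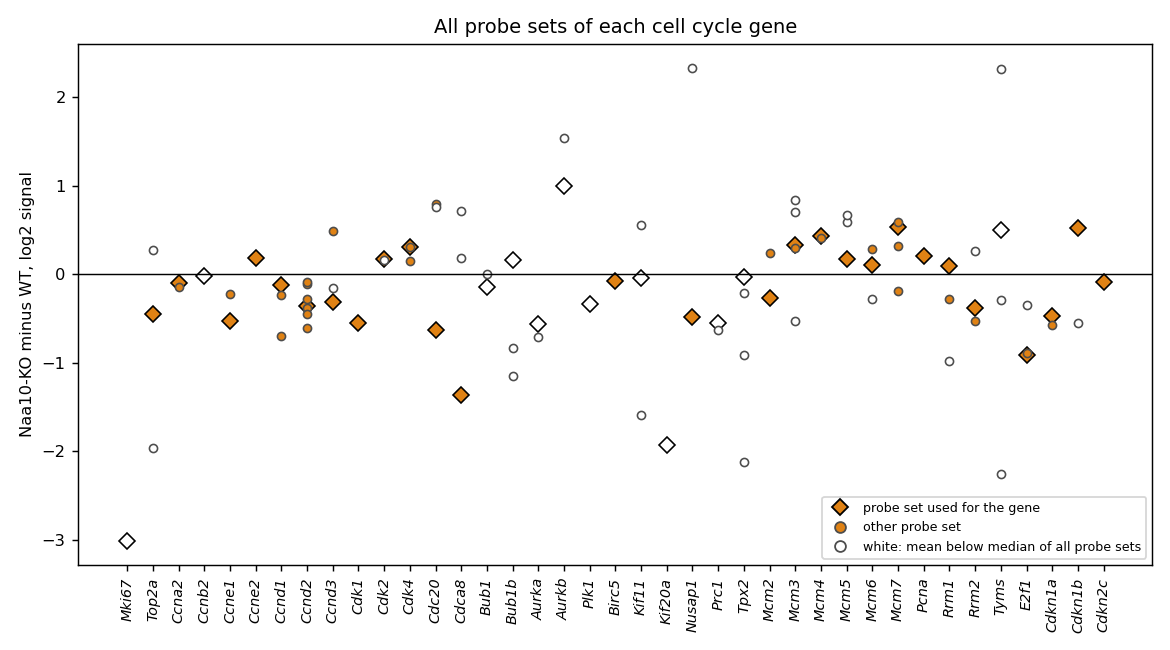
Log2 difference, Naa10-KO minus WT (y axis), of every probe set of the 39 genes, with diamonds for the probe set used for the gene and circles for the others. White symbols mark probe sets of low mean signal. The 7 probe sets of Ccnd2 all lie below 0, and those of Cdc20 and Nusap1 lie on both sides.

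Wider lists of the pathway gave 150 further measured genes, and 0 of them passed, against 0.115% of all genes. The groups did not overlap in 20.7% of the 150, against 18.1% of all genes. In the list of G1/S control, 24 genes were measured, with 14 means higher and 10 lower and a median difference of 0.05. Tfdp2, a dimer partner of E2F factors, gave 10.20, 10.42 and 10.12 on the Naa10-KO arrays and 10.92, 11.10 and 10.87 on the WT arrays. All Naa10-KO arrays lay below all WT arrays, and the difference was -0.72 (SE 0.16, adjusted p = 0.351 in limma), which passed only with the trend and robust options of eBayes among the fits run (adjusted p = 0.0449). Cdc25a, a phosphatase that activates Cdk2, differed by -0.38, and Myc, a growth-promoting transcription factor, by 0.62 (adjusted p = 0.502), both without overlap of the groups.

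The replication list had 44 measured genes, 21 means higher and 23 lower, with a median difference of -0.04. Cdc6, which loads the MCM ring on origins, differed by 0.51 (adjusted p = 0.501), and its groups did not overlap. Uhrf1, which keeps DNA methylation through replication, and Tk1, thymidine kinase, had low signals and differed by -1.15 and -2.82. The difference between this list and the MCM genes was not tested.

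In the list of G2 and mitosis, 63 genes were measured, with 25 means higher and 38 lower and a median difference of -0.27. Of the 63, 29 had low signals, and over the other 34 the median was -0.09, with 16 means higher and 18 lower. The mean log2 signal of the 63 was 6.12, 6.53 and 6.61 on Naa10-KO replicates 1 to 3 and 6.81, 6.75 and 6.80 on WT replicates 1 to 3. Naa10-KO replicate 1, which also had the highest 3' from 5' difference of both control genes, was the lowest. Without it the median difference was -0.11 over the 63 and 0.01 over the 34. With any other array left out it lay between -0.29 and -0.24 over the 63 and between -0.16 and -0.04 over the 34. With probe sets averaged it was -0.31 over the 63. With low values raised to the median it was -0.01 over the genes that kept a spread. The part of RNA quality in this shift was not tested. Stmn1, which destabilises microtubules, gave 9.35, 9.08 and 9.51 on the Naa10-KO arrays and 10.42, 10.32 and 9.85 on the WT arrays, a difference of -0.88 (SE 0.22, adjusted p = 0.414) without overlap. Nuf2, a kinetochore protein, and Mybl2, a transcription factor of the cycle, had low signals and differed by -2.57 (adjusted p = 0.179) and 0.96.

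Genes of growth arrest and p53 targets numbered 19, with 9 means higher and 10 lower. Eda2r, a receptor induced by p53, differed by 0.84 (adjusted p = 0.531) and Sesn1, a stress protein, by 0.38, both without overlap of the groups. Plk3, a stress-responsive kinase, had a low signal and differed by -0.50.

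**Figure D5:**
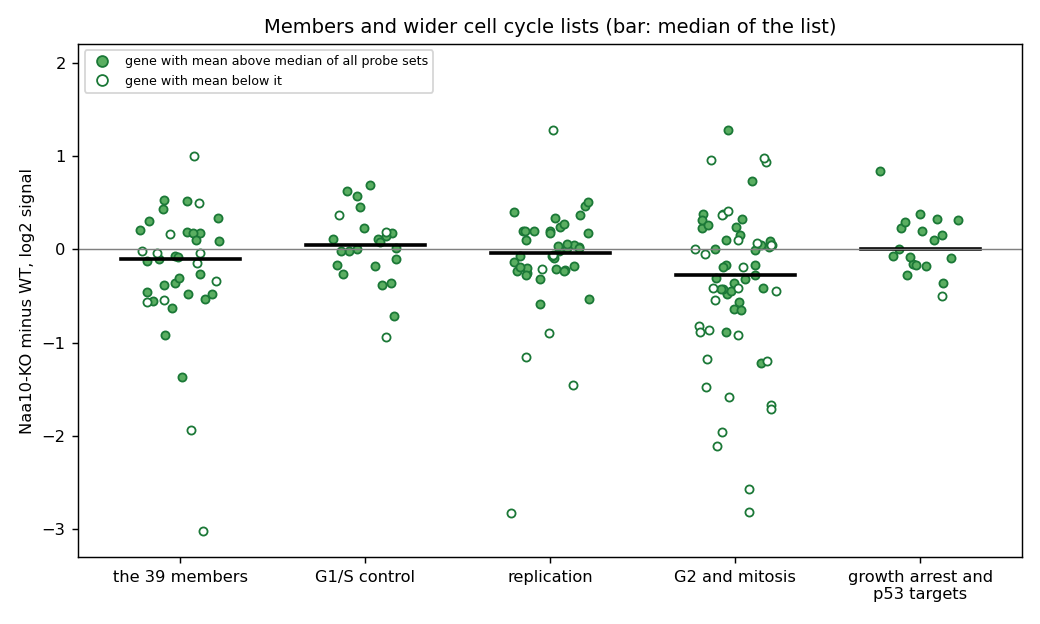
Log2 differences, Naa10-KO minus WT (y axis), of the 39 members and of 4 wider cell cycle lists (x axis), with 1 point per gene, open for genes of low mean signal, and a bar at the median of each list. Medians are -0.10 for the members, 0.05 for G1/S control, -0.04 for replication, -0.27 for G2 and mitosis and close to 0 for growth arrest, and the points furthest below 0 are open.

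Markers of cells that can divide in fat were set beside these values. Summed linear signals of B cell and germinal centre markers (13 measured of 15 listed) lay between 2452 and 5896 in Naa10-KO and between 1881 and 3713 in WT. They lay between 1270.3 and 1532 in Naa10-KO and between 1055 and 1545 in WT for T cells (9 of 12), and between 40653 and 49856 in Naa10-KO and 39101 and 44086 in WT for macrophages (13 of 14). For progenitors and fibroblasts (11 of 12) the sums lay between 63427 and 74164 in Naa10-KO and between 69829 and 75376 in WT, and for endothelium (10 of 10) between 3578 and 3836 in Naa10-KO and between 3138 and 3836 in WT. The groups overlapped in these 5 sums. The mean log2 signal of the macrophage list did not overlap, at 9.81, 9.92 and 9.86 on Naa10-KO replicates 1 to 3 and 10.03, 10.19 and 10.10 on WT replicates 1 to 3. In that list 7 means were higher and 6 lower in Naa10-KO, with a median difference of 0.01. Trem2, of low mean signal, differed by -2.80 and was the only 1 of the 13 whose groups did not overlap. Without Trem2 the list means of the groups overlap, so their separation rested on this gene. Sums of red blood cell precursor markers (5 of 7) did not overlap either, at 185 to 218 in Naa10-KO and 244 to 342 in WT, and Klf1 differed by -1.67. The probe sets used for Hba-a1, Slc4a1 and Epb42 of that list were low on all 6 arrays. Probe sets annotated to several genes were not read, so this describes the sets used. Klf1, of low mean signal, was low on all Naa10-KO arrays. Only Alas2 had a mean above the mark, and it differed by -0.25 with overlapping groups. Of the 5 means, 1 was higher and 4 were lower in Naa10-KO. In the B cell list 4 means were higher and 9 lower in Naa10-KO. The mean log2 signal of that list was lowest on Naa10-KO replicate 2, at 5.39, and highest on Naa10-KO replicate 3. On the WT arrays it lay between 5.89 and 7.01, so the groups overlapped. Ms4a1 was lowest on Naa10-KO replicate 2, at 6.70, and lay between 8.43 and 10.46 in WT. Bcl6 was highest on that same Naa10-KO array, at 10.63, so the linear sum there hides the low Ms4a1. Bcl6 differed by 0.84 and Pax5, of low mean signal, by -1.88, both without overlap of the groups. Bcl6, Ms4a1, Pax5, Trem2 and Klf1 were picked after their values were seen. Low on all Naa10-KO arrays were Pax5 and Mef2b of the B cell list, Cd4 of the T cell list, Itgam and Trem2 of the macrophage list and Tie1 of the endothelial list, and low on all WT arrays were Mef2b, Rgs13, Cd4 and Tie1. Skeletal muscle sums did not overlap, at 132340 to 169332 in Naa10-KO and 8563 to 23616 in WT. The part of these cells in the values of the cell cycle genes was not tested.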

How the data were processed

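RNA of inguinal white fat from 3 Naa10-KO and 3 WT mice was measured with 1 Affymetrix whole-genome array per mouse, from 3 µg of total RNA labelled with biotin, per the labels' protocols. The authors deposited 1 log2 signal per probe set for 45101 probe sets. On the linear scale the mean after trimming 2% at each end was 500.0 on every array, so each array had been scaled to 1 level. No source used here names the software. Values were used as deposited.

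Besides 64 controls, 34945 probe sets had 1 gene in a platform annotation of GEO, 932 had several and 9160 had none. Entrez identifiers of 34741 matched a RefSeq gene table (GRCm38.p6), which changed 0 symbols. Each of 18193 genes was read from its probe set with the highest mean. No detection calls were used, so the median of all values, 5.86, served as a mark for low signal. Genotype was the only term in limma 3.58.1 (R 4.3.3; lmFit and eBayes, 2-sided), with Benjamini-Hochberg adjustment over all genes and a threshold of 0.05. The number of arrays limits the precision. No label ties replicate numbers to a litter or day. P-values set the difference between the groups against the spread between these mice, which limma moderates with the spread over all genes. The limma fit was tested on simulated data.

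Sequence windows from RefSeq (GRCm38.p6) were kept where they hold the gene's outermost start in the gene table, a rule set after the windows were read. Members, role groups and lists were chosen with earlier results of these data known. Array values are given for members above the mark whose groups do not overlap and, for a role group with none, for its member of highest mean, and the others by means or ranges. Mcm4 and the second E2f1 probe set, given in full as well, were chosen after their values were seen. From each wider list the 3 genes of smallest p are named. Alternatives were quantile normalization, centring on the median, a filter on low values, low values raised to the median, other choices of probe sets, trend and robust options, array weights, a replicate block, each array left out and an adjusted p of 0.10. Naa10 itself was not analysed here, so the genotype labels were not checked against the targeted transcript.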

Additional observations from a re-analysis of the deposited data

How the results depend on the processing

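No member passed in 15 of 16 alternative fits or at an adjusted p of 0.10, and 1 member, E2f1, passed when low values were raised to the median. Of the wider lists, 1 gene, Tfdp2, passed with trend and robust options, and 0 passed in the other fits. Members without overlap of the groups numbered 7 when a gene's probe sets were averaged (16.5% of all genes there) and 2 without x_at and s_at probe sets (17.9% of all genes), against 4. They numbered 6 to 15 with each array left out, when 25.6% to 31.7% of all genes did not overlap, since groups of 2 overlap less often by construction. They were 15 without WT replicate 3, 13 without Naa10-KO replicate 3, 11 without Naa10-KO replicate 2, 11 without WT replicate 1 and 7 without Naa10-KO replicate 1. The median difference of the 27 members above the mark was -0.25 with array weights and lay between -0.24 and 0.06 with each array left out, all within 1 SD between arrays of the value with all arrays. Cdc20 turned positive with the mean of all its probe sets (0.31) and without x_at and s_at probe sets (0.79), and Nusap1 with the mean of its probe sets (0.93). Ccna2 was 0.0636 without WT replicate 1, 0.0585 without Naa10-KO replicate 2 and 0.0158 without WT replicate 2, and reached -0.38 without WT replicate 3. The replicate block called 0 members and 0 of all genes. Deviations of same-numbered arrays from their group means correlated at -0.01, -0.01 and -0.03, and those of other pairs at -0.01 to 0.02. Whether same-numbered arrays shared a litter or day is not known. Of all genes, 21 were called with all arrays, 30 without WT replicate 3, 0 without any other single array, 0 with probe sets averaged or tested one by one, 34 with array weights, 75 with low values filtered, 117 with low values raised and 137 with trend and robust options. Members at an unadjusted p under 0.05 numbered 1 to 9 over these fits. The cause of these shifts was not tested. Signals below the median of all probe sets limit what can be said of 12 members.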
